A study of Homo sapiens with 6 samples.

Results

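The resting expression programme of MDA-MB-231, an established human breast cancer line that its labels call triple negative, was read from the cells that had received a control siRNA (siControl). These are 2 of the 6 libraries of the series, 1 collected 24 h and 1 collected 48 h after transfection. They were chosen by their treatment label, with earlier results of these data known. The other 4 libraries came from cells transfected with siNCOA3 or siSHC1 and collected at the same times, and they enter only where they are named. All groups share the cell line, the transfection and the library kit. Untransfected cells were not analysed here, so the values are those of transfected cells. The siControl libraries are 1 per time, nothing in the labels says whether they came from separate cultures, and no test across samples was possible. Both values are therefore given each time, 24 h first, and their difference carries both time and library noise.

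Triple-negative tumours lack the oestrogen receptor, the progesterone receptor and amplified HER2 (ERBB2). Cell lines of this kind fall into forms that keep basal epithelial features and forms that resemble mesenchymal cells, with vimentin in the cytoskeleton, a CD44-rich surface and little E-cadherin. MDA-MB-231 is widely used as a mesenchymal, invasive example, and growth factor receptors such as EGFR and AXL have been studied in it as drivers of growth and movement.

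Levels are in FPKM, which are fragments counted relative to gene length and library size. Genes of different length can thus be compared roughly, and least well where a gene is very short. Of 20111 genes, 11270 (56.0%) stood at 1 FPKM or more in both libraries, and 4506 (22.4%) were listed at 0 in both. These shares are the background for every count of a gene group below. The libraries held 495518 and 538699 FPKM in all, with 14796 and 15213 genes above 0. Read counts are not in the table used here, and an exact 0 or a value near it is not proof that a gene is silent. Between the 2 libraries, 93.73% of the 11649 genes with at least 1 FPKM in either lay within 0.5 on the log2 scale after scaling. This difference holds time and noise together and is no replicate spread. It was wider at low levels. Its 5th and 95th percentiles were -0.912 and 0.88 for genes with a mean below 1 FPKM, and -0.108 and 0.303 at 1000 FPKM or more.

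The genes taken as defining here were VIM, CD44, EGFR, ESR1, PGR and ERBB2. VIM, which encodes the mesenchymal intermediate filament vimentin, stood at 887 and 932 FPKM, rank 47 of all genes. CD44, the hyaluronan receptor, stood at 557 and 505 FPKM, rank 103. EGFR, the receptor for epidermal growth factor, stood at 48.9 and 44.4 FPKM, rank 1875. All of them were far above the median gene, whose mean level was 2.90 FPKM, but EGFR was about an order of magnitude below CD44. ESR1, the oestrogen receptor, was listed at 0 at 24 h and at 0.0321 FPKM at 48 h. PGR, the progesterone receptor, was listed at 0 in both. ERBB2 was present at 27.4 and 35.5 FPKM, rank 2850, and EGFR stood 1.79 and 1.25 times above it. Receptor protein and ERBB2 amplification were not measured, and no line of another type was compared. The triple-negative label was therefore not tested. In these bulk libraries, fewer cells carrying a transcript and less of it per cell cannot be told apart.

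**Figure D1:**
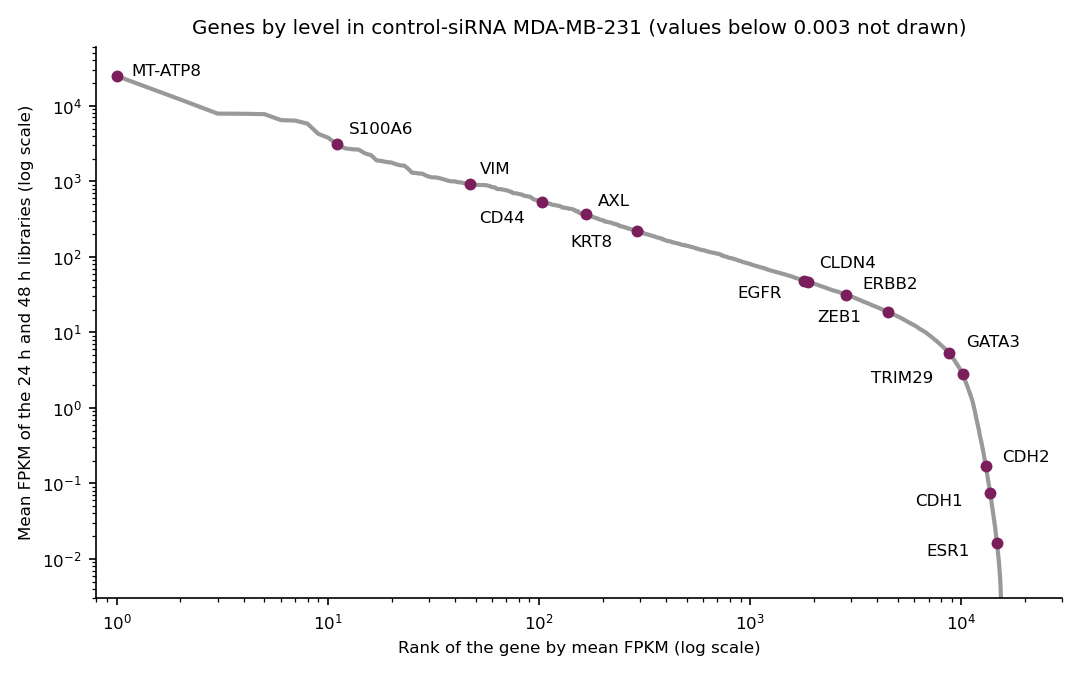
Mean FPKM of the 24 h and 48 h siControl libraries (log scale) against the rank of the gene (log scale), with 15 genes marked. VIM at rank 47 and CD44 at rank 103 sit near the top, EGFR at rank 1875 lies well below them, and CDH1, CDH2 and ESR1 lie on the steep fall below 1 FPKM.

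A few families made up much of the signal. The 10 highest genes held 16.7% and 16.9% of all FPKM, and all 10 are encoded by the mitochondrial genome. The 13 mitochondrially encoded genes, which specify subunits of the respiratory chain and of ATP synthase, together held 17.6% and 17.7%. MT-ATP8 was first with 23950 and 25563 FPKM, and MT-ND6, the only one of the 13 on the other strand of the mitochondrial genome, was last with 448 and 354 FPKM. MT-ATP8 and MT-ATP6 overlap on the genome, as do MT-ND4L and MT-ND4, so their split is uncertain. The kit is one for mRNA, and how fully it took up each mitochondrial transcript, MT-ND6 among them, was not measured. Cytosolic ribosomal proteins filled 38 of the 100 highest places, and their 89 measured genes held 9.61% and 9.09% of all FPKM. Beyond the mitochondrial genes, the 10 highest held 5.06% and 5.25% of what remained.

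The highest nuclear gene was S100A6, a calcium-binding protein of proliferating and motile cells, at 2713 and 3524 FPKM. The next places went to the cytoskeleton, translation, iron storage and glycolysis. ACTB, cytoplasmic actin, stood at 2605 and 2713 FPKM, and its partner ACTG1 at 1796 in each library. EEF1A1, the factor that brings tRNA to the ribosome, stood at 2583 and 2664 FPKM. TMSB10, which binds monomeric actin, stood at 2007 and 2664 FPKM. The ferritin chains FTL, at 2283 and 2154 FPKM, and FTH1, at 1674 and 1865 FPKM, store iron. These genes lay close together: ACTB and EEF1A1 differed by less than their own difference between libraries. EEF1A1, TMSB10, FTL, FTH1, ACTB, ACTG1 and most ribosomal protein genes have near-identical copies in the genome, which can take or give fragments, so their levels are uncertain to that extent.

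Glycolysis was represented by 5 enzymes among the 36 highest genes. LDHA, which turns pyruvate into lactate, stood at 1684 and 2098 FPKM, GAPDH at 1736 and 1971, and ENO1, the enolase, at 1413 and 1840. ALDOA, the aldolase, stood at 1165 and 1413 FPKM, and PKM, the pyruvate kinase, at 934 and 1156. SLC16A3, the lactate exporter, was the highest of 373 solute carrier genes at 466 and 502 FPKM, and the glucose transporter SLC2A1 reached 174 and 191. None of these 7 genes passed 2-fold between the libraries. The remaining places of the 20 highest nuclear genes were held by TUBB (1571 and 1796 FPKM), PABPC1, which coats poly(A) tails (1569 and 1656), RPLP0 (1450 and 1479), S100A4 (1067 and 1534), RPS18 (1259 and 1272), RPS2 (1206 and 1191), RPLP2 (1130 and 1180), TMSB4X, a further actin-binding thymosin (993 and 1263), and HNRNPH1, a splicing regulator (1073 and 1179).

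The S100 family showed a sharp split. Of its 19 genes, 9 stood at 1 FPKM or more in both libraries, and S100A6, S100A4, S100A10 and S100A11 were among the 100 highest genes of all. S100A4, linked to cell motility, was followed by S100A10, the partner of annexin A2, at 634 and 751 FPKM and by S100A11 at 542 and 592. S100A16, at 185 and 208 FPKM, and S100A2, at 115 and 165 FPKM, came next. S100A7, S100A8 and S100A9, the S100 genes of inflamed skin and of myeloid cells, were listed at 0 in both. ANXA2 stood at 707 and 805 FPKM, and 9 of 12 annexin genes reached 1 FPKM in both.

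Promoters of highly transcribed genes and of genes listed at 0 differ in their letters. In vertebrate genomes CG pairs are rare except in CpG islands, which cover the starts of most broadly used genes, while many tissue-restricted genes start in CG-poor sequence, some with a TATA box. The RefSeq promoters of S100A6 and S100A4, neighbours in one gene cluster, of VIM, and of the basal keratin KRT5, listed at 0 in both libraries, are shown because they span this range. Each runs from 250 bases before to 50 bases after the annotated start, on the strand of the gene, with CG pairs in capitals and, where present, TATAAA in capitals. The build is GRCh38.p14, which is not that of the authors, so genes were matched by symbol. S100A6 lies at chr1:153535942-153536241 (minus strand), S100A4 at chr1:153545757-153546056 (minus strand), VIM at chr10:17227991-17228290 (plus strand) and KRT5 at chr12:52520345-52520644 (minus strand).
S100A6: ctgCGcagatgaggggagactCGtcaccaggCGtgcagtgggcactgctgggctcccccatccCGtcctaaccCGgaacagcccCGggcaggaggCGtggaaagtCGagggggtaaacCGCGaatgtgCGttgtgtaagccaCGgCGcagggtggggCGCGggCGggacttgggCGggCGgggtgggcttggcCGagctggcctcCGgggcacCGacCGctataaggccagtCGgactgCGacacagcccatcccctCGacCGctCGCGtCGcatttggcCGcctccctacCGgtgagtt
S100A4: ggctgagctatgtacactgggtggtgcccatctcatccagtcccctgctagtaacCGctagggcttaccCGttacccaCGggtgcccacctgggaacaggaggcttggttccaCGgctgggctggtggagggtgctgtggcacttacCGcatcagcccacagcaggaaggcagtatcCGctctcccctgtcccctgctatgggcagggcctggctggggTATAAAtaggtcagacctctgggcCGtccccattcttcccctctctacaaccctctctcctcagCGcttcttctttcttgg
VIM: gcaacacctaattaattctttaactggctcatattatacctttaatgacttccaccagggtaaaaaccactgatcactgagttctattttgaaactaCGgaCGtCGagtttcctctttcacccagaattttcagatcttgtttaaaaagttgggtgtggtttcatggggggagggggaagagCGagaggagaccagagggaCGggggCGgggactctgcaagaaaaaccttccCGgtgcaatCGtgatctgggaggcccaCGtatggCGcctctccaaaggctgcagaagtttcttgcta
KRT5: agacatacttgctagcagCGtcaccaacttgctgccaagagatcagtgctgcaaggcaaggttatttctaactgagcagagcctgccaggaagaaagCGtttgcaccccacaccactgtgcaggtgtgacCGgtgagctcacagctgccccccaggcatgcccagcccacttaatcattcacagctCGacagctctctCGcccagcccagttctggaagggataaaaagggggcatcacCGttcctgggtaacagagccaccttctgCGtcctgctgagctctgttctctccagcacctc

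S100A6 held 31 CG pairs, and S100A4 held 8 although its level was also above 1000 FPKM. VIM held 10 CG pairs and KRT5 held 7. Set against the number its C and G content would give, the CG ratio was 0.866 for S100A6, 0.584 for VIM, 0.301 for KRT5 and 0.293 for S100A4. Of the sequences printed, TATAAA was found in the 50 bases before the start, on either strand, in that of S100A4, where it begins 31 bases before the start. A high level was thus present with a CG-rich promoter and with a CG-poor one.

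Across the 10355 genes with a single promoter in the table, the median CG ratio was 0.275 for the 2269 genes listed at 0 in both libraries. It was 0.556 for genes above 0 and below a mean of 1 FPKM, 0.833 from 1 to below 10, 0.884 from 10 to below 100 and 0.902 for the 396 genes at 100 FPKM or more. The ratio thus differed between the 3 lowest classes in steps of like size, and little among genes above 1 FPKM. TATAAA in the same window, searched on both strands, followed another course. It was found in 12.4% of the genes at 0, in 7.27% of those below 1 FPKM, in 1.43% from 1 to below 10, in 1.71% from 10 to below 100, and in 5.81% at 100 FPKM or more. Over all 10355 of these genes the share was 5.21%, near that of the top class, and over all 35116 promoters of the RefSeq table it was 3.47%. These are descriptions of letters, with no test, and a match is not a binding site.

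**Figure D2:**
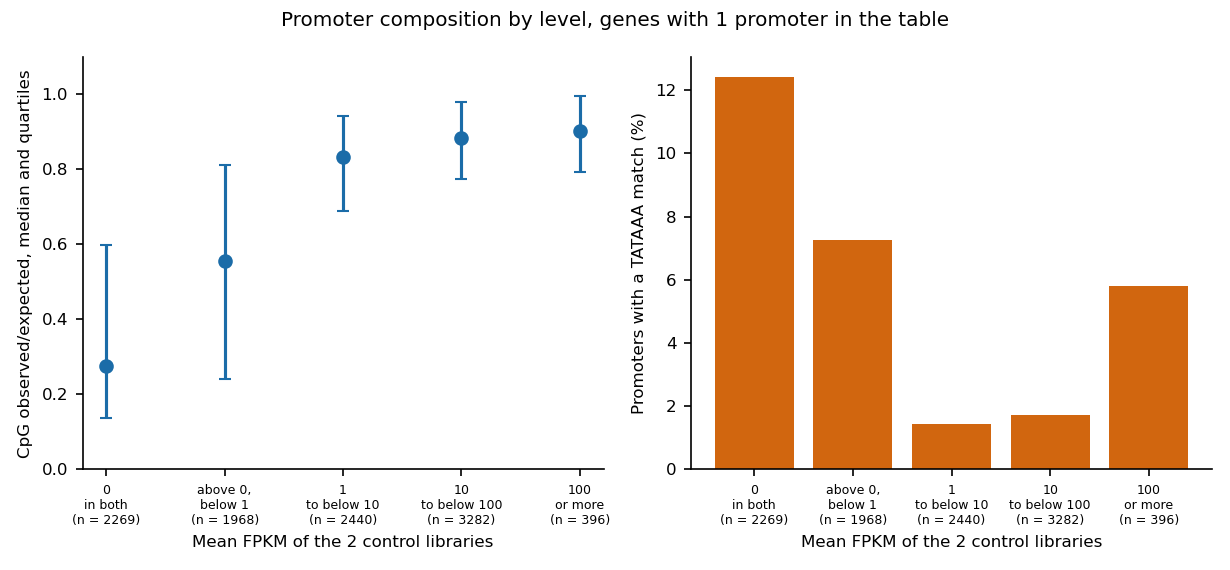
Left, median and quartiles of the CG observed to expected ratio of promoters by mean FPKM class of the gene. Right, percent of promoters with TATAAA in the 50 bases before the start. The ratio goes from 0.275 at level 0 to 0.902 at 100 FPKM or more, while the TATAAA share is highest at 0 (12.4%), lowest from 1 to below 10 FPKM (1.43%) and 5.81% in the top class.

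Of the lineage lists as drawn up here, the mesenchymal one was the most fully present. The lists were chosen with earlier results of these data known, so this order describes the lists and is no test. Of 35 genes in the mesenchymal list, 25 (71.4%, against 56.0% of all genes) stood at 1 FPKM or more in both libraries. The median of the mean level in the list was 27.1 FPKM, and 2 of its genes were listed at 0 in both. S100A4 led it, followed by the galectin LGALS1 at 789 and 1104 FPKM, VIM, CD44, and the collagen-binding integrin chain ITGB1 at 445 and 481. The receptor AXL, at 370 and 362 FPKM, was sixth. Of the transcription factors that repress epithelial genes, ZEB1 stood at 17.7 and 19.6 FPKM, SNAI2 at 21.3 and 18.3, and ZEB2 at 2.37 and 2.15. SNAI1 was below 1 FPKM, and TWIST1 and TWIST2 were listed at 0 in both. Neither of the cadherins used to mark the epithelial and the mesenchymal state reached 1 FPKM: CDH1 (E-cadherin) stood at 0.0207 and 0.128 FPKM and CDH2 (N-cadherin) at 0.194 and 0.143. CDH11, a cadherin of mesenchymal and bone-forming cells, stood at 34.2 and 55.4 FPKM, 176 and 388 times the level of CDH2. Since CDH2 lay near 0, the size of this ratio is uncertain. Of 23 cadherin genes only CDH11, CDH4 (8.57 and 9.48 FPKM) and CDH24 (8.09 and 7.25) reached 1 FPKM in both.

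Basal genes ranged from high levels to 0. Of 35 genes, 17 (48.6%, against 56.0% of all genes) stood at 1 FPKM or more in both libraries. Listed at 0 in both were 8 (22.9%), near the 22.4% of all genes, and the median mean level was 1.26 FPKM. The 6 highest members were CAV1, the coat protein of caveolae, at 413 and 481 FPKM, the laminin chain LAMB3 at 136 and 146, the hemidesmosome integrins ITGB4 at 120 and 159 and ITGA6 at 115 and 133, CAV2 at 101 and 103, and the checkpoint adaptor SFN at 88.2 and 98.4. Several keratins and transcription factors that define basal epithelium were low or at 0. KRT5, KRT16 and SOX10 were listed at 0 in both, KRT14 at 0 and 0.0231 FPKM, TP63 stood at 0.294 and 0.480, and KRT17 was below 0.3 in both. Other basal members listed at 0 in both were CRYAB, DSG3, EN1, ID4 and MME. TRIM29, another gene of basal epithelium, was at 1.64 and 3.90 FPKM, and FOXC1, a transcription factor of basal-like tumours, at 5.38 and 4.21.

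Among luminal genes the simple-epithelium keratins were high, and the other members ranged from moderate levels to 0. Of 35 genes, 17 (48.6%, against 56.0% of all genes) reached 1 FPKM in both libraries. Listed at 0 in both were 8 (22.9%), near the 22.4% of all genes, and the median mean level was 1.18 FPKM. The simple-epithelium keratins led: KRT8 at 206 and 238 FPKM, KRT19 at 153 and 208, KRT18, which pairs with KRT8, at 160 and 166, and KRT7 at 123 and 121. VIM stood 4.31 and 3.91 times above KRT8. The epithelial factor EHF, at 44.1 and 59.4 FPKM, and XBP1, a factor of secretory cells, at 33.9 and 51.2, followed. MLPH (30.7 and 35.4), CA12 (12.4 and 33.6) and SLC39A6 (20.1 and 22.1) were also present. GATA3, which specifies luminal cells, stood at 5.07 and 5.56 FPKM. FOXA1, the pioneer factor for the oestrogen receptor, was listed at 0 in both, as were KIT, ERBB4, ELF5, TBX3, PIP and AGR3 beside PGR. Of all 55 keratin genes, 9 reached 1 FPKM in both (16.4%), and 26 were listed at 0.

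Epithelial junction genes were present at about the share of all genes. Of 38 genes, 22 (57.9%, against 56.0% of all genes) stood at 1 FPKM or more in both libraries and 6 were listed at 0 in both, with a median mean level of 2.19 FPKM. SPINT2, a surface protease inhibitor, stood at 162 and 207 FPKM, AP1M2, a sorting adaptor of epithelial cells, at 66.4 and 42.2, and the tight junction gene CLDN4 at 43.7 and 52.9. TJP1 (25.6 and 29.7) and the desmosomal plakin DSP (19.4 and 23.0) were lower. Among the claudins used to name the claudin-low tumour type, CLDN4 was thus the highest, with CLDN7 at 13.38 and 24.996 FPKM and CLDN3 at 1.62 and 2.21. EPCAM, the epithelial adhesion molecule, stood at 6.65 and 7.06 FPKM. Of the regulators of the epithelial state, the splicing factor ESRP1 and the transcription factors GRHL2 and OVOL1 were listed at 0 in both, while ESRP2 was at 0.845 and 1.21, GRHL1 at 0.395 and 0.201, and OVOL2 below 0.1. RAB25, MARVELD3 and PKP1 were also at 0. Tight junction genes lay on both sides of 1 FPKM, with CLDN1 at 0.313 and 0.154, TJP3 at 0.0368 and 0.235 and CRB3 at 0.115 and 0.318.

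**Figure D3:**
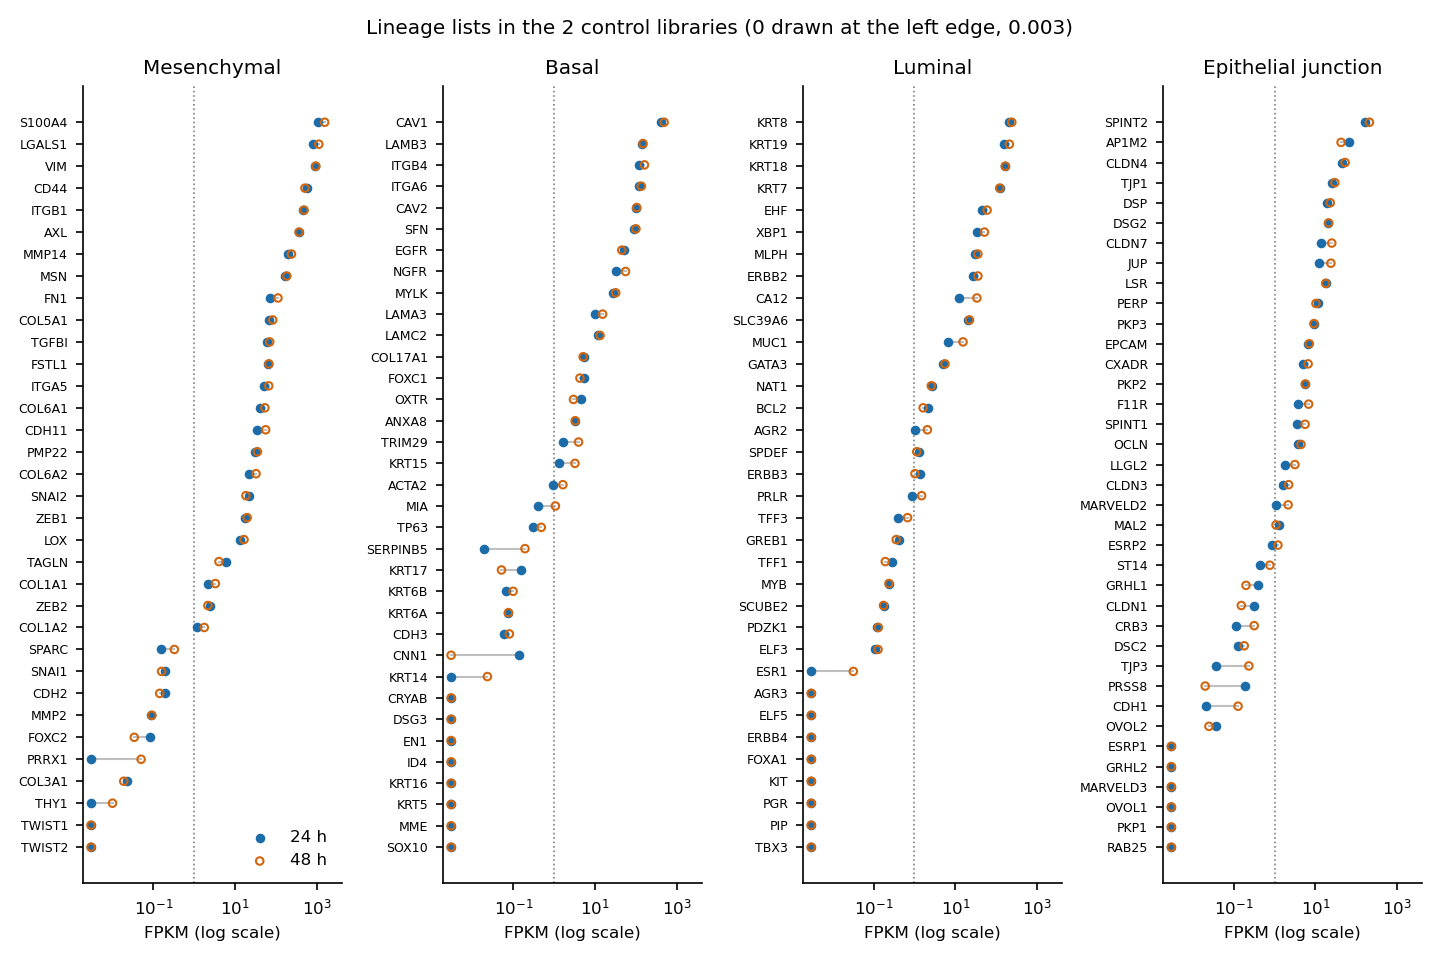
FPKM (log scale) of members of the mesenchymal, basal, luminal and epithelial junction lists at 24 h (filled) and 48 h (open), with 0 drawn at the left edge and a dotted line at 1 FPKM. A few members are not drawn. Over the whole lists, 25 of 35 mesenchymal genes are at 1 FPKM or more in both libraries. The numbers are 17 of 35 basal, 17 of 35 luminal and 22 of 38 junction genes, against 56.0% of all genes. The lists were chosen with earlier results of these data known.

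Of 54 receptor tyrosine kinases, 22 (40.7%) stood at 1 FPKM or more in both libraries, fewer than the 56.0% of all genes. Listed at 0 in both were 12 (22.2%), near the 22.4% of all genes. AXL, the receptor for GAS6, was the highest at 370 and 362 FPKM, rank 166. It stood 5.28 and 4.81 times above the next, EPHA2, and 7.56 and 8.15 times above EGFR. EPHA2, an ephrin receptor, at 70.0 and 75.2 FPKM, and MET, the receptor for hepatocyte growth factor, at 67.2 and 76.4, changed order between the libraries and could not be ranked. FGFR1 followed at 52.1 and 60.5 FPKM, above EGFR in both libraries, and EGFR changed order with the collagen receptor DDR1 at 39.1 and 53.6. In the order of levels, AXL was clear of the rest, and the 5 that followed lay between 39.1 and 76.4 FPKM. Of the EGFR family, ERBB3 was near 1 FPKM (1.38 and 1.03) and ERBB4 was listed at 0. KIT, RET, ALK, FLT3, FGFR2 and ROR2 were also listed at 0 in both, as were EPHA7, EPHA8, EPHB1 and INSRR.

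In a list of 58 ligands of these receptors and related genes, 25 (43.1%) reached 1 FPKM in both libraries. Listed at 0 in both were 11 (19.0%, against 22.4% of all genes). Some members, such as ANGPTL4, FGF12 and FGF13, are not established ligands of these receptors, so the counts are those of the list. VEGFA, the main angiogenic factor, led at 179 and 204 FPKM. GAS6 stood at 110 and 127 FPKM, CSF1, the macrophage growth factor, at 76.6 and 125, and VEGFB at 76.5 and 92.8. PDGFC stood at 41.3 and 48.9 FPKM and TGFA, a ligand of EGFR, at 40.0 and 40.3. GAS6 and its receptor AXL were therefore both high in the same bulk libraries. HGF, IGF1, FGF2 and GDNF, ligands that are often supplied by stromal cells, were listed at 0 in both. So were the list members EPGN, FGF9, FGF12, FGF13, NRG3, NRG4 and WNT5A.

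**Figure D4:**
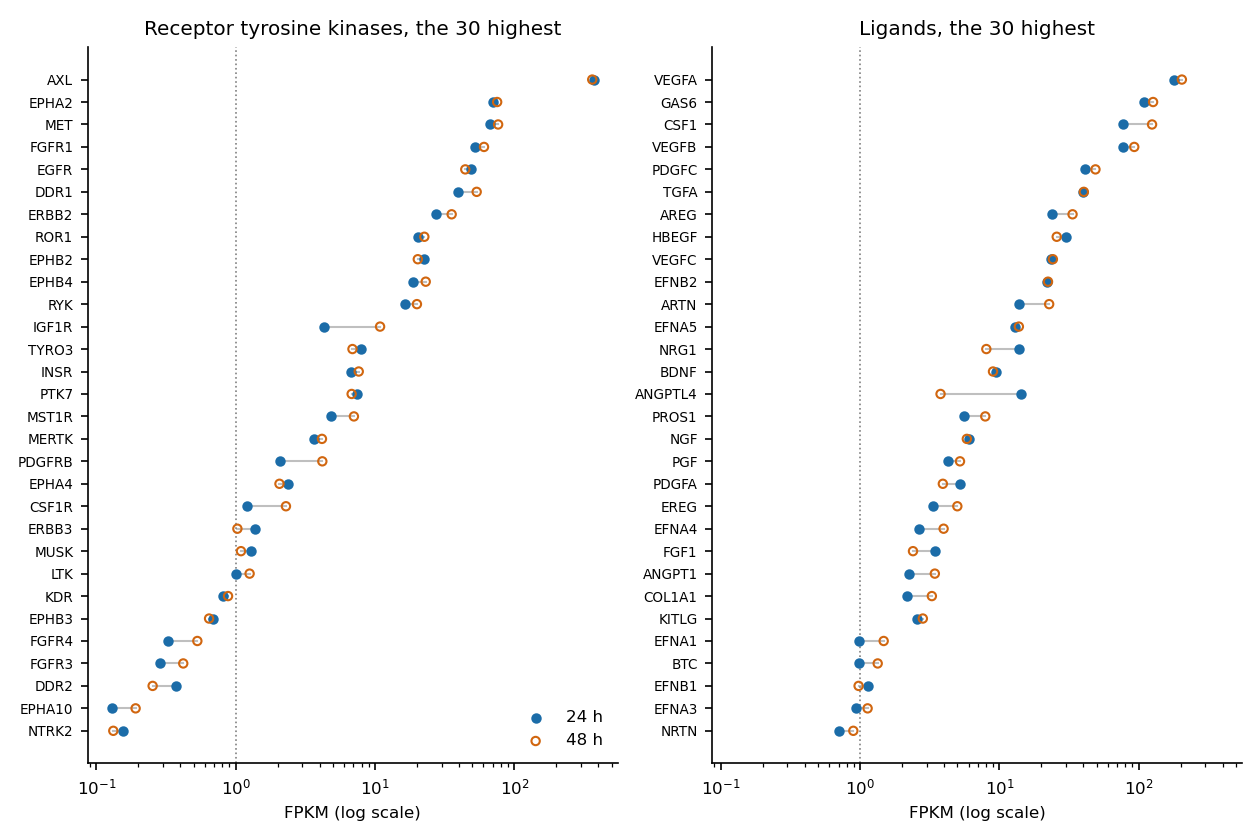
FPKM (log scale) of the 30 highest receptor tyrosine kinases (left) and of the 30 highest members of the ligand list (right). Filled points are 24 h, open points are 48 h, and the dotted line is at 1 FPKM. AXL at 370 and 362 FPKM stands apart from the other receptors, and VEGFA at 179 and 204 FPKM leads the ligands.

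Pairs of ligand and receptor, put together after the levels had been seen, were read for which side was present. Of 56 pairs, 24 had both sides at 1 FPKM or more in both libraries, 16 the ligand only, 14 the receptor only and 2 neither. EGFR was matched by 4 ligands: TGFA, HBEGF at 30.1 and 25.8 FPKM, AREG at 23.8 and 33.5, and EREG at 3.33 and 4.99. AXL was matched by GAS6, TGFBR2 (57.4 and 63.5) by TGFB1 (30.7 and 40.0), and TNFRSF12A (120 and 102) by TNFSF12 (13.8 and 17.2). MET, IGF1R (4.28 and 10.9) and OSMR (29.4 and 41.3) had no ligand above 1 FPKM, since HGF, IGF1 and OSM were at 0 and IGF2 was at 0.0226 and 0.0504. The reverse held for the angiogenic ligands, whose receptors belong to endothelium: VEGFA, VEGFB and VEGFC were present, KDR stood at 0.808 and 0.881 FPKM, and FLT1 and FLT4 were at 0 in 1 library each. PDGFC was likewise without PDGFRA (0.00768 and 0.00672), BDNF without NTRK2 (0.154 and 0.132), and IL8 (2.67 and 7.34) without CXCR2, listed at 0. Co-presence of transcripts does not show that a receptor is active.

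Of the cytokine lists as drawn up here, the receptor list was the more fully present. Of 47 receptor genes, 32 (68.1%) reached 1 FPKM in both libraries, and of 49 cytokines and chemokines 23 (46.9%) did. Over all genes the share was 56.0%. The lists are selections chosen with earlier results of these data known, so these shares describe the lists. IL6ST, the signalling chain shared by the IL-6 family, stood at 314 and 343 FPKM, 25.045 and 22.82 times above LIFR. It was followed by TNFRSF12A, TNFRSF1A (53.6 and 64.4), TNFRSF21 (56.9 and 57.4), LTBR (45.6 and 51.2) and the TRAIL receptor TNFRSF10B (41.5 and 49.1). Among the ligands MIF, macrophage migration inhibitory factor, led at 212 and 250 FPKM, with CSF1 next. IL32 (33.89 and 50.02), TNFSF10, which encodes TRAIL (27.0 and 47.5), LIF (25.6 and 24.7) and CSF2 (17.3 and 23.3) followed. IL6 stood at 10.9 and 12.6 FPKM, while its own receptor IL6R was at 0.266 and 0.0912. CXCR4, a receptor studied in metastasis, was near 1 FPKM (1.33 and 1.66) and its ligand CXCL12 was listed at 0.

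The TGF-beta, WNT and Notch lists each had a somewhat smaller share of members present than all genes (51.4%, 48.7% and 50%). In the TGF-beta family, 19 of 37 genes reached 1 FPKM in both libraries. BMP4, a ligand of the bone morphogenetic branch, led at 108 and 173 FPKM, and the secreted antagonist NOG stood at 35.7 and 26.1. In the WNT list, 19 of 39 did. DKK1, an inhibitor of WNT signalling, led at 89.1 and 76.5 FPKM, above the co-receptor LRP5 at 54.1 and 68.9 and the receptors FZD2 (21.8 and 18.9) and FZD6 (18.2 and 20.9). Of the ligands in that list WNT7B (10.98 and 14.2) was the highest, and 9 WNT genes were listed at 0 in both, WNT5A among them. In the Notch list, 7 of 14 did, led by NOTCH2 at 40.4 and 45.8 FPKM, with the ligand JAG1 at 12.8 and 11.3.

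Of 47 nuclear receptors, 20 (42.6%, against 56.0% of all genes) reached 1 FPKM in both libraries. Listed at 0 in both were 10 (21.3%), near the 22.4% of all genes. NR2F2, an orphan receptor of mesenchyme and veins, led at 94.1 and 130 FPKM. The oxysterol receptor NR1H2 (31.9 and 31.7), the glucocorticoid receptor NR3C1 (27.4 and 35.1), ESRRA (29.4 and 27.3), PPARD (24.0 and 31.1) and RXRB (23.4 and 30.1) lay between 23.4 and 35.1 FPKM, most of them with overlapping values. The steroid receptor with a high level was thus NR3C1, while ESR1 and PGR were at or near 0 and ESR2 stood at 0.415 and 0.489. In a selected list of 50 G protein-coupled receptors, 31 (62.0%, against 56.0% of all genes) reached 1 FPKM in both, and 14 reached 5 FPKM. The list does not stand for the whole family. It was led by the adhesion receptor CD97 (93.6 and 98.5), the adenosine receptor ADORA2B (42.0 and 33.7), GPR56 (35.6 and 37.0) and the protease-activated receptor F2RL1 (32.0 and 34.8).

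Matrix and protease genes were abundant. Of 50, 36 (72.0%) stood at 1 FPKM or more in both libraries, with a median mean level of 43.9 FPKM. CTSD, a lysosomal protease, was highest at 940 and 1247 FPKM, followed by the metalloproteinase inhibitor TIMP1 at 563 and 705. CYR61 (304 and 260) and THBS1 (272 and 215), matricellular proteins, followed, and MMP14, a membrane-bound metalloproteinase, stood at 190 and 237. TIMP1 stood 2.96 and 2.98 times above MMP14. The secreted proteases most often named in invasion were low: MMP1 was at 0.858 and 0.401 FPKM, MMP2 and MMP9 below 0.3, and MMP10 and MMP13 listed at 0. The urokinase PLAU (176 and 171) and its receptor PLAUR (65.4 and 65.9) were both present. Of 44 collagen genes 18 reached 1 FPKM in both, led by COL5A1 (66.5 and 82.6), and the fibrillar COL1A1 (2.16 and 3.27) and COL1A2 (1.15 and 1.75) were low.

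The integrin chains present made a restricted set. Of 26 genes, 11 reached 1 FPKM in both libraries. ITGA3, which pairs with ITGB1 to bind laminin, stood at 476 and 552 FPKM, rank 107, with ITGB1 close to it. ITGB4, ITGB5 (112 and 137) and ITGA6 overlapped, and ITGA5, the fibronectin receptor chain, stood at 50.2 and 65.9. ITGA4, ITGAM and ITGAD, chains of blood cells, and ITGA8 were listed at 0. Other surface genes were widely present, 33 of 44 at 1 FPKM or more in both, led after CD44 by BSG (326 and 392), CD63 (242 and 281), the ectonucleotidase NT5E (215 and 263), CD74 (152 and 273) and TFRC, the transferrin receptor (203 and 198). PROM1 and NCAM1 were listed at 0. In the stem cell list, 5 of 14 genes reached 1 FPKM in both, led by BMI1 (49.9 and 44.3). ALDH1A1 was listed at 0 in both, and ALDH1A3 stood at 2.49 and 2.85.

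Of 33 cancer driver genes, 26 (78.8%) stood at 1 FPKM or more in both libraries. CCND1, cyclin D1, led at 219 and 210 FPKM, and its kinase CDK4 stood at 125 and 130, 7.51 and 9.10 times above CDK6. AKT1 was at 113 and 133, HRAS at 62.0 and 59.7, and the inhibitor CDKN1A at 41.3 and 46.1. CDKN2A and CDKN2B, which encode inhibitors of CDK4 and CDK6, and MYCN were listed at 0 in both, and their neighbour MTAP, a purine salvage enzyme, stood at 0.00275 and 0.

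The genes at 0 around CDKN2A were contiguous. Between MLLT3 (4.97 and 7.86 FPKM) and TUSC1 (3.40 and 3.61) on chromosome 9, RefSeq places 25 protein-coding genes. Of these, 23 were listed at 0 in both siControl libraries. The exceptions were FOCAD, next to MLLT3, at 0.616 and 0.634 FPKM, and MTAP. The stretch holds the interferon alpha cluster, whose genes are silent in most unstimulated cells, and also KLHL9, CDKN2A, CDKN2B, DMRTA1 and ELAVL2. Apart from FOCAD and PTPLAD2, each of the 25 was also listed at 0 in all 4 knockdown libraries. The gene order comes from another build than that of the authors, and DNA copy number was not measured. Beyond TUSC1, CAAP1 (13.1 and 16.1) and PLAA (30.3 and 30.6) were present.

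Some of the 4506 genes at 0 belong to families of sensory or surface tissues. Of 383 olfactory receptor genes, 358 were at 0 in both libraries (93.5%, against 22.4% of all genes). So were 86 of 93 keratin-associated proteins (92.5%), 41 of 43 defensins (95.3%) and 27 of 28 late cornified envelope and small proline-rich proteins (96.4%). These families were picked after the values were seen, and most of the genes at 0 lie outside them. Of 27 taste receptors, 12 were at 0 and none reached 1 FPKM in both. Among 39 HOX genes, which pattern the body axis, 20 were at 0 and 3 reached 1 FPKM in both: HOXB3 (2.45 and 2.38), HOXB9 (1.98 and 2.37) and HOXD4 (1.82 and 2.17). Of 29 cancer-testis genes, 17 were at 0 and 3 reached 1 FPKM, with XAGE1A alone high at 66.9 and 73.2; its near-identical copies make that value uncertain. All 43 housekeeping genes and 85 of 89 ribosomal protein genes reached 1 FPKM in both. The 3 ribosomal protein genes at 0 in both were RPL3L, RPS4Y1 and RPS4Y2, while RPL3 stood at 424 and 458 FPKM and RPS4X at 361 and 386. Zeros shared by all 6 libraries numbered 3600. A further 809 genes were at 0 at 24 h only and 392 at 48 h only. The library at 48 h was estimated to be 1.44 times as deep.

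Markers of other cell types were near 0, with exceptions. Of 15 leukocyte genes, 7 were listed at 0 in both, CD3D and CD4 among them. The list held 0.0011% and 0.0022% of all FPKM, and 2 genes reached 1 FPKM in both, CD14 (3.24 and 7.51) and CSF1R (1.20 and 2.29). Of 9 endothelial genes, CDH5, CLDN5 and EMCN were at 0, and ESAM (13.7 and 13.1) and ROBO4 (8.31 and 10.2) were present. Of 12 fibroblast genes, DCN, FAP, PDPN and POSTN were at 0, and S100A4, PDGFRB (2.07 and 4.18), COL1A1 and COL1A2 were present, of which S100A4 and the collagens are also mesenchymal members. Of 8 melanocyte genes, MLANA, TYR and TYRP1 were among 5 at 0, and MITF stood at 3.47 and 3.87. Of 11 neural genes, 5 were at 0, and MBP (52.1 and 61.3), TUBB3 (31.1 and 44.5), GFAP (5.46 and 2.67) and SYT1 (1.82 and 1.41) reached 1 FPKM. Of 10 erythroid and liver genes, 8 were at 0, among them ALB, HBA1 and HBB, and SERPINA1 stood at 36.5 and 62.4. No adipocyte gene of 6 reached 1 FPKM in both.

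Most genes differed little between 24 h and 48 h. After the libraries were scaled by the median of ratios, which removes a shift of 0.105 on the log2 scale, 54 of 11649 genes (0.464%) were 2-fold or more higher at 48 h and 36 (0.309%) were lower, on log2(scaled FPKM + 1). Without scaling these numbers were 76 and 29. They were 158 and 72 with a pseudocount of 0.1, and 25 and 11 when only genes averaging 5 FPKM or more were kept. With 1 library per time there is no test, and the difference has no replicate check. Between the 5th and the 95th percentile, log2 differences ran from -0.39 to 0.45. No gene of the defining list was among those past 2-fold.

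The largest differences with a mean of at least 5 FPKM mix named pathways with doubtful gene models. CFB, complement factor B, was higher at 48 h (5.41 and 20.3 FPKM), as were the acute-phase protein SAA2 (14.9 and 50.7), the read-through model RPL17-C18orf32 (1.95 and 8.27), ZSCAN18 (19.8 and 62.9), SPINK4 (5.42 and 17.5) and SCD, the stearoyl-CoA desaturase (54.4 and 160). Lower at 48 h were AP002348.1 (32.2 and 0.0173), LUZP6 (193 and 20.4), ANGPTL4, a secreted regulator of lipoprotein lipase (14.3 and 3.78), ETV6 (33.6 and 13.1), the cytokine IL24 (21.0 and 7.98) and AC012360.2 (63.2 and 25.4). SAA2 has a near-identical copy in SAA1, LUZP6 lies within MTPN, and read-through models share exons with their parents, so their split is uncertain. AP001579.1 (0 and 5.55 FPKM) and AL050302.1 (0 and 7.92) were the genes at 0 in 1 library and at 5 FPKM or more in the other.

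Within the lists, HLA genes leaned to 48 h. All 13 measured HLA genes with at least 1 FPKM were above 0 on the log2 scale, with a median of 0.64, against 0.00 for all genes. The class I genes HLA-B (519 and 719 FPKM) and HLA-C (298 and 408) were abundant, and the 3 genes past 2-fold were of class II: HLA-DMA (14.1 and 34.1), HLA-DMB (2.84 and 8.98) and HLA-DPA1 (6.43 and 16.6). HLA genes are alike in sequence and vary between people, so their values are uncertain. IL8 (2.67 and 7.34) and CXCL1 (1.74 and 5.14), chemokines for neutrophils, and IGF1R, MUC1 (6.46 and 15.3) and CA12 (12.4 and 33.6) were the other members of the receptor, ligand, surface and lineage lists that were 2-fold or more higher. On the lower side, the members of the receptor, ligand and lineage lists past 2-fold were IL11 (19.1 and 9.63), IL24 and ANGPTL4.

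A pair of groups was picked after the 2-fold genes had been seen and is described only. All 30 measured genes of cholesterol and fatty acid synthesis were above 0, with a median of 0.54, and 4 passed 2-fold, among them SCD, INSIG1, the sterol sensor partner (33.7 and 94.6 FPKM), and TM7SF2 (4.40 and 12.6). Of 37 clustered histone genes with at least 1 FPKM, 1 was above 0, the median was -0.59, and 9 were 2-fold or more lower, HIST1H3B (7.84 and 1.57), HIST1H4K (6.64 and 2.34) and HIST1H1E (9.68 and 4.58) among them. Most of these histone mRNAs are made in S phase and end without a poly(A) tail, and the kit is one for mRNA. Since these groups were chosen for their differences, the counts are no support for one.

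**Figure D5:**
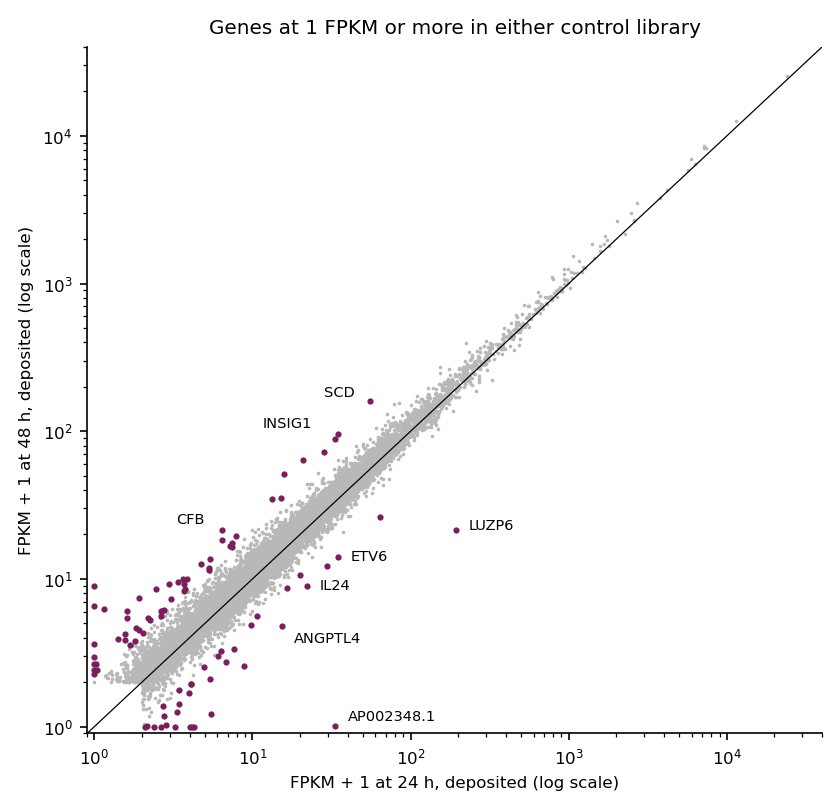
FPKM + 1 as deposited at 24 h (horizontal) and 48 h (vertical), both log scales, for the 11649 genes at 1 FPKM or more in either siControl library, with the line of equality. The 54 genes 2-fold or more higher and the 36 lower after scaling are dark, and most genes lie in a narrow band along the line.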

How the data were processed

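The series holds mRNA libraries of MDA-MB-231 cells, of which the 2 siControl libraries of 6 were used. Per the labels' protocols, RNA was taken with Trizol and libraries were made with the KAPA stranded mRNA kit. The build hg19 and the tools Cufflinks, STAR and DESeq2 stand in the submitters' processing notes, without versions or roles. For the annotation and the strand setting nothing is given in the sources used here. Although its name speaks of read counts, the deposited table holds FPKM, since its values are not whole. Overlapping models share fragments: 65 and 78 values lie above 0 but below 1e-05 FPKM.

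The 24 h and 48 h libraries are 1 per group, so no test was run. Levels are deposited FPKM, and ranks follow the mean of both libraries. For 48 h against 24 h, FPKM were scaled by the median of ratios over 11270 genes (factors 0.964 and 1.037), and a 2-fold limit was set on log2(scaled FPKM + 1), the pseudocount being 1, among genes with at least 1 FPKM in either. The scaling was tested on simulated data. Among 1633 genes below 0.3 FPKM in both, 45.0% of ratios between the libraries fell on whole-fragment steps within 0.02 on the log2 scale, too few to recover counts. No interval or detection limit is therefore given, and the depth is known only as a ratio.

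The libraries, gene lists and families were chosen with earlier results of these data known. The lists hold 806 symbols, of which 800 were matched; NR2E3, CD24, CSAG2, BAGE, PECAM1 and NEFL were not analysed here. The rule for named genes takes the 20 highest nuclear genes, the defining genes, up to 6 of the highest members of each list, members of a class at 0, and up to 6 genes in each direction for time. Other list members named, the ligand and receptor pairs, the families at 0, the stretch on chromosome 9, and the histone and lipid groups were picked after their values were seen. Promoters came from RefSeq (GRCh38.p14), matched by symbol for 14111 genes. The alternatives were other minimum levels, single libraries, other scalings, pseudocounts, filters and folds, and, added after seeing the data, another choice of promoters. The scripts ran in Python 3.11.15 with pandas 2.3.3 and numpy 2.4.6, and plots were drawn in matplotlib 3.10.9. Some genes of these lists are counted but not reported here by name.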

Additional observations from a re-analysis of the deposited data

Results flagged for a closer look

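Of the genes listed at 0 in both siControl libraries, 9 had 1 FPKM or more in at least 1 of the 4 knockdown libraries, and none of them had it in all 4. The 5 that reached 5 FPKM there are given because the siControl values do not show them. AC005488.1 and AC006014.1 each stood at 30.53 FPKM in siNCOA3 at 48 h and at 0 in the other 5 libraries. AC009977.1 stood at 25.84 FPKM in siSHC1 at 48 h and at 0 elsewhere. AP000758.1 stood at 9.544 FPKM in siSHC1 and at 2.457 in siNCOA3, both at 48 h. LRLE1 stood at 7.107 FPKM in siNCOA3 at 24 h alone. Each high value comes from 1 library, with no replicate. In the other direction, LSP1 was the 1 gene at 1 FPKM or more in both siControl libraries (7.37 and 5.08) and at 0 in the other 4.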

How the results depend on the processing

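The share of FPKM held by the highest genes depended on the mitochondrially encoded genes: without them the 10 highest held 5.15% in place of 16.8% and the 100 highest 22.3% in place of 34.8%. The number of genes 2-fold or more higher at 48 h, 54, was 158 with a pseudocount of 0.1, 96 with 0.5, 25 with a mean of at least 5 FPKM and 302 with a limit of 1.5-fold. The number lower, 36, was 72 with a pseudocount of 0.1, 11 with a mean of at least 5 FPKM and 159 with 1.5-fold. Equal totals gave 53 higher and 38 lower. The genes at 1 FPKM or more in both libraries, 11270, were 11890 at 0.5 FPKM, 8650 at 5 FPKM and 14404 above 0. Those listed at 0, 4506, were 6364 when values below 0.1 FPKM counted as 0, and 5315 and 4898 in the 24 h and 48 h libraries alone. Of the 28 lists, all kept their number of members present within 1.5 times at 0.5 FPKM and in each library alone, and 17 did so at 5 FPKM. Without mitochondrially encoded and ribosomal protein genes, VIM ranked 24 and CD44 ranked 53. In each setting of the comparison of times, more genes were higher at 48 h than lower. The directions of single genes were not recomputed.

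No paired analysis was possible because the result comes from 1 library per time and no test was run; for the same reason no library can be left out of the comparison of times. At the low end, more genes were at 0 in the 24 h library only (809) than in the 48 h library only (392). The 48 h library was estimated to be the deeper one, from values too few of which fell on whole steps to recover counts, and the part of depth in these zeros was not tested.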
